A study of Homo sapiens with 8 samples.

Results

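The 5 Mb at the short-arm end of chromosome 19, in band 19p13.3, held 2511 of the 194003 peaks that the 4 eCLIP peak lists of RBPMS contained. The members were chosen by position: every listed peak on chromosome 19 that ended at or before base 5000000 of build hg19, on either strand. The stretch was singled out with earlier results of these data known, namely that peaks enriched over input were frequent near chromosome ends and on chromosome 19. The share of enriched peaks inside it is therefore given as a description, with no test. Libraries 1, 2, 3 and 4 listed 594, 1304, 246 and 367 of the members.

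All libraries came from HUES6, a human embryonic stem cell line of wild-type genotype, grown in FTDA medium under control conditions. Crosslinking with UV light at 400 mJ/cm2 fixed RNA to the proteins that touched it. The 4 eCLIP libraries hold RNA recovered with an RBPMS-specific antibody, and the 4 input libraries hold RNA taken without antibody. The inputs enter these data only as the reference in each eCLIP list. Everything comes from a single cell line, and nothing states that the libraries were separate cultures, so the spread between them may be technical. Peak lists hold no expression levels, so the labelled cell type could not be checked against its markers.

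RBPMS is an RNA-binding protein with an RNA recognition motif, known for binding RNA with a pair of CAC motifs and for regulating splicing in smooth muscle. In eCLIP, bound RNA is crosslinked, trimmed, pulled down and sequenced, and a peak is a stretch where such reads pile up. Input RNA from the same procedure shows how many reads a stretch gives without the antibody. Chromosome 19 is known as the most gene-dense human chromosome. Genes known to lie in band 19p13.3 include BSG, a cell-surface glycoprotein; PTBP1, CIRBP and DAZAP1, RNA-binding proteins; STK11, a kinase; TCF3, a transcription factor; DOT1L, a histone methyltransferase; and EEF2, a translation elongation factor. The gene table used here is that of GRCh38.p14, another build, so no peak was assigned to a gene, exon, intron or untranslated region. No hg19 sequence was used either, and no base sequence or motif is given for any region.

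Each listed peak carries the authors' log2 fold of immunoprecipitation over input and the authors' −log10 p. A peak was called enriched at a log2 fold of at least 3, which is 8-fold, with −log10 p of at least 3. Read numbers behind most peaks were worked back from these pairs of values. Listed members had a median of 4 immunoprecipitation reads in libraries 1, 3 and 4 and of 6 in library 2. Over 365 shared peaks the reads of libraries 3 and 4 differed no more than sampling noise gives (chi-square test, p = 0.225; the statistic over its degrees of freedom was 1.06), while the other 5 pairs gave 6.51 to 11.9. These 2 libraries therefore entered as 1 sample. A mean ± SD is over n = 3 samples, namely library 1, library 2 and the mean of libraries 3 and 4, unless another n is given. The test was on reads and not on log2 folds, and such an SD leaves out the spread between libraries 3 and 4. At chr19:878422-878526, for example, libraries 3 and 4 gave log2 folds of 3.89 and 6.88.

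Enriched peaks made up a larger share of the members than of the listed peaks elsewhere in every library. In library 1, 138 of 594 members were enriched, 23.2% (Wilson 95% interval 20.0 to 26.8), where all listed peaks of that library gave 15.9%. In library 2 it was 91 of 1304, 6.98% (5.72 to 8.49), against 5.38%. In library 3 it was 54 of 246, 22.0% (17.2 to 27.5), against 12.6%, and in library 4 it was 74 of 367, 20.2% (16.4 to 24.6), against 12.7%. The mean count was 97.7 ± 37.4 enriched peaks and the mean share 17.1% ± 8.82. Intervals cover counting error only, since neighbouring peaks share transcripts.

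On the rest of chromosome 19 the enriched share was 17.5%, 6.21%, 15.8% and 14.2% in libraries 1 to 4, below the share in the first 5 Mb in each library. Other gene-dense chromosome ends were set beside it, with long-arm ends counted back from the last listed peak. The first 5 Mb of chromosome 16 gave 17.4%, 10.6%, 23.9% and 23.0%. The last 5 Mb of chromosome 17 gave 19.5%, 7.61%, 23.7% and 24.4%, and the last 5 Mb of chromosome 9 gave 23.6%, 7.66%, 16.6% and 13.9%. No order of the 4 ends held in all libraries: the end of chromosome 19 stood above that of chromosome 16 in library 1 and below it in libraries 2, 3 and 4.

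**Figure D1:**
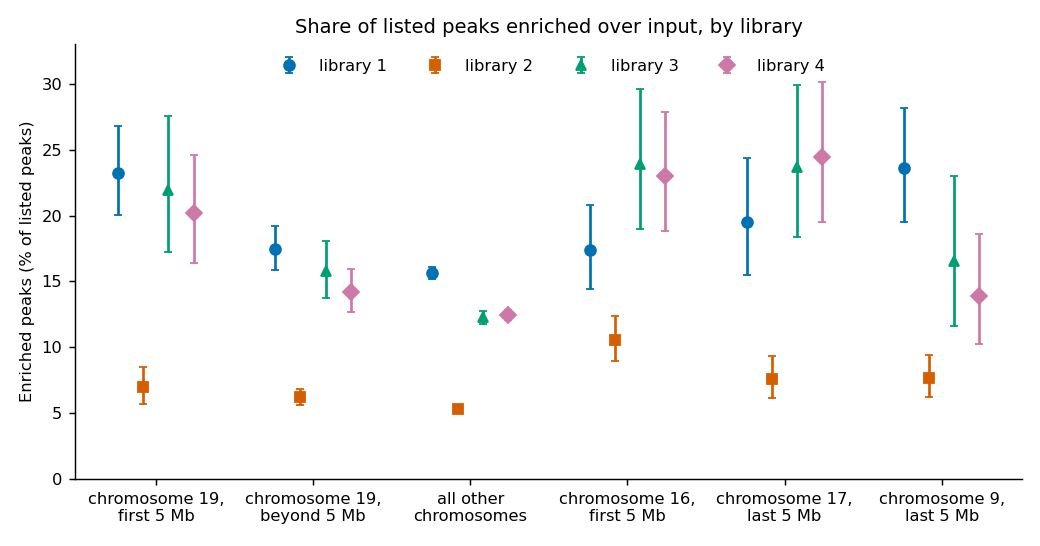
Share of listed peaks that were enriched over input (vertical axis, percent) in 6 parts of the genome (horizontal axis), 1 point per eCLIP library with its Wilson 95% interval. In the first 5 Mb of chromosome 19 libraries 1, 3 and 4 lie between 20.2% and 23.2% and library 2 at 6.98%, each above its value for all other chromosomes.

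Deep peaks were a larger part of the members than of the peaks elsewhere, while the median number of immunoprecipitation reads was the same in libraries 1 and 4, at 4, and differed in library 2, at 6 against 4, and library 3, at 4 against 3. Peaks with at least 20 immunoprecipitation reads made up 14%, 20.6%, 14.6% and 17.5% of the members with known reads in libraries 1 to 4. Elsewhere they made up 6.99%, 9.91%, 6.32% and 9.45%. Among these deeper peaks the enriched share was 92.6% inside against 86.5% elsewhere in library 1, 44.7% against 55.1% in library 2, 85.3% against 84.9% in library 3 and 84.7% against 82.9% in library 4. Inside, these were 75 of 81, 76 of 170, 29 of 34 and 50 of 59 members in libraries 1 to 4. Within this read class the members were thus above the peaks elsewhere in library 1 and below them in library 2. In libraries 3 and 4 the shares were too close for so few members to give a direction. The part of the read numbers in the enriched share was not tested beyond these classes. Among peaks with 10 to 19 reads the share inside was lower in libraries 1, 2 and 3, at 62.0%, 5.34% and 64.3% against 71.2%, 15.3% and 76.5%, and higher in library 4, at 66.7% against 63.4%. These classes leave out 17, 480, 13 and 29 members whose reads could not be worked back, of which 7, 314, 11 and 19 lay below input. Those left out in libraries 1 and 2 include the 6 and 10 members at the upper limit of 400 for −log10 p.

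**Figure D2:**
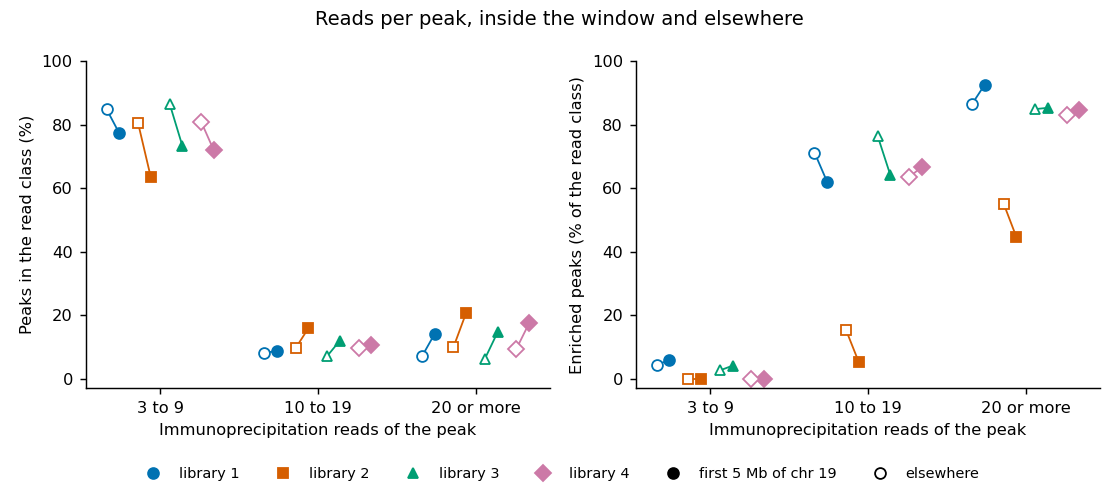
Left, share of the peaks with known reads that fall in each class of immunoprecipitation reads; right, share of the peaks of a class that were enriched, both in percent, for the first 5 Mb of chromosome 19 (filled) and elsewhere (open), per library. The class of 20 or more reads held 14% to 20.6% of the members against 6.32% to 9.91% elsewhere. Its enriched share lay above that elsewhere in library 1, close to it in libraries 3 and 4 and below it in library 2.

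Among enriched peaks with known reads, members rested on more immunoprecipitation reads than peaks elsewhere. Reads were known for 118 of 138, 70 of 91, 49 of 54 and 62 of 74 enriched members in libraries 1 to 4. The median over these members was 20, 53, 19 and 23 immunoprecipitation reads, against 14, 30, 14 and 18 elsewhere. The first 5 Mb of chromosome 16 were similar, at 24, 42, 19 and 25. The last 5 Mb of chromosome 17 gave 17, 34.5, 12.5 and 23, and those of chromosome 9 gave 17, 44, 16.5 and 22. A single input read stood under 15.3%, 25.7%, 40.8% and 46.8% of the enriched members with known reads, against 28.9%, 36.8%, 59.4% and 60.4% elsewhere. The chromosome 16 end gave 20%, 23.4%, 38.1% and 46.3%, that of chromosome 17 33.3%, 48.5%, 71.4% and 40.8%, and that of chromosome 9 17.1%, 22.2%, 66.7% and 40%. Inside the 5 Mb, a single input read concerned 18, 18, 20 and 29 enriched members, whose worked-back input of 1 may also stand for an input of 0. Over 1 input read, a call took at least 7, 13, 8 and 10 immunoprecipitation reads in libraries 1 to 4.

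The height of the enriched members was like that of the whole lists. Their median log2 fold was 4.4, 3.95, 4.54 and 4.43 in libraries 1 to 4, where all enriched peaks gave 4.47, 4.15, 4.54 and 4.45. The highest single values inside were 6.57, 7.99, 6.29 and 7.24. Their median width was 71, 91, 86 and 77.5 bases, against 75, 89, 80 and 81 elsewhere, a difference of -0.25 ± 3.27 bases (exact two-sided sign-flip permutation test, p = 1, n = 3).

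The plus strand carried 67 of 138, 40 of 91, 24 of 54 and 33 of 74 enriched members in libraries 1 to 4. These shares of 48.6%, 44.0%, 44.4% and 44.6% were below those elsewhere in 4 of 4 libraries, at 52.0%, 53.7%, 52.3% and 53.7%. The difference was -7.25 ± 3.33 percentage points (exact two-sided sign-flip permutation test, p = 0.25, the smallest that 3 samples allow, n = 3). Strand and width were not used to choose the stretch. The comparison parts lay on both sides: the rest of chromosome 19 gave 39.8%, 45.6%, 41.4% and 46.7%, and the first 5 Mb of chromosome 16 gave 45.8%, 41.0%, 33.9% and 42.1%. The last 5 Mb of chromosome 17 gave 44.1%, 64.2%, 59.2% and 55.7%, and the last 5 Mb of chromosome 9 gave 41.4%, 57.3%, 51.9% and 59.5%. All listed members, enriched or not, also had a lower plus-strand share than the whole lists. It was 47.1%, 47.1%, 51.6% and 48.5% in libraries 1 to 4, against 50.4%, 53.0%, 52.6% and 54.2%. Whether the enriched members differ beyond this was not tested.

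Enriched peaks were unevenly spread along the 5 Mb. The bin from 500 to 1000 kb held the most, with 33, 28, 17 and 23 enriched peaks in libraries 1 to 4 among 77, 151, 45 and 48 listed. The bin from 1000 to 1500 kb held the most listed peaks, 144, 247, 47 and 75, but of these only 29, 10, 5 and 6 were enriched. Between 3000 and 3500 kb there were 25, 56, 11 and 16 listed peaks and 1, 2, 0 and 2 enriched ones. From 4000 to 4500 kb the counts were 7, 6, 1 and 0.

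**Figure D3:**
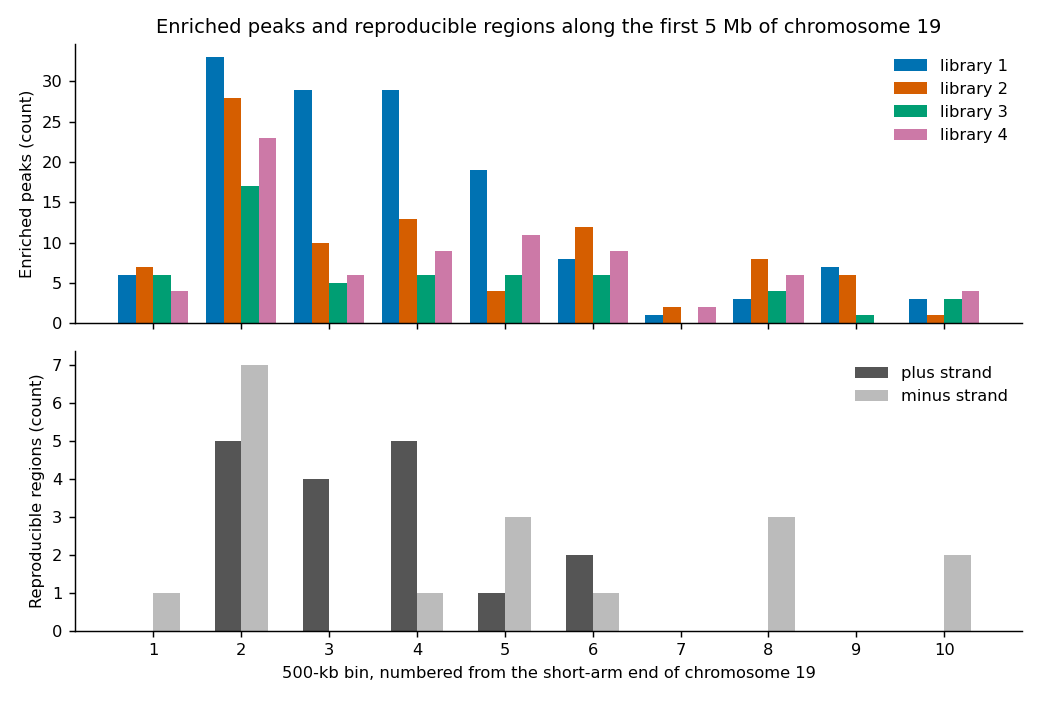
Top, enriched peaks per 500-kb bin and eCLIP library; bottom, regions enriched in at least 3 of 4 libraries per bin and strand, both as counts, with bins numbered from the short-arm end. The second bin holds the most enriched peaks, 33, 28, 17 and 23 in libraries 1 to 4, and 12 reproducible regions, and bins 7 and 9 hold no reproducible region.

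Enriched peaks of different libraries that shared at least 1 base on a strand were merged, which gave 148 regions in the first 5 Mb. A single library called 88 of them, 25 had 2 libraries, 17 had 3 and 18 had all 4. The 35 with at least 3 of 4 libraries, termed reproducible, were 23.6% of the 148, against 22.7% of all 7472 merged regions. This rule counts libraries 3 and 4 singly, although they entered the means as 1 sample. The 18 regions enriched in all 4 were 12.2%, against 12.6% of all. Both shares were close to the background and are no result about these 5 Mb. At the first 5 Mb of chromosome 16, 43 of 127 regions were reproducible (33.9%), at the last 5 Mb of chromosome 17 it was 29 of 91 (31.9%), and at the last 5 Mb of chromosome 9 it was 19 of 100 (19%).

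The reproducible regions lay on both strands, 17 on the plus and 18 on the minus strand. They were 65 to 583 bases wide, with a median of 158 bases, and covered 7614 bases in all. Neighbours at most 1 kb apart on a strand were joined into stretches, which left 19: 11 of 1 region, 2 of 2 regions, 5 of 3 regions and 1 of 5 regions. Of the 35 regions, 24 (68.6%) had such a neighbour, against 58.7% of all 1699 reproducible regions. This was not particular to these 5 Mb. The share was 65.7% on the rest of chromosome 19, and 79.1%, 65.5% and 63.2% at the ends of chromosomes 16, 17 and 9. The first 3 Mb held 17 of the 19 stretches and 30 of the 35 regions. The same 3 Mb also held most of the listed and of the enriched members, so this placement is no result about the reproducible regions. The longest distance between neighbouring stretches, 1001394 bases, ran from chr19:2806097 to chr19:3807492. No region of the 148 overlapped a region on the other strand.

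The highest stretch lay at chr19:513548-514636 on the plus strand and held 3 regions in 1089 bases. Its widest region, chr19:513776-514358, had log2 folds of 6.57, 7.97, 5.67 and 5.83 in libraries 1 to 4, with a mean of 6.76 ± 1.12 (SD, n = 3). Directly after it, with no base between, followed chr19:514359-514636 at 6.24, 7.99, 5.26 and 5.63, with a mean of 6.56 ± 1.30 (SD, n = 3). These were the highest means of the 5 Mb, ranked 42 and 59 among the 940 regions enriched in all 4 libraries genome-wide. Library 2 stood above the other libraries in both. The highest peaks rested on 24 immunoprecipitation reads over 1 input read in library 3 and 39 over 1 in library 4 for the wider region, and on 18 over 1 and 34 over 1 for its neighbour. In library 2 they rested on at least 240 and 243 reads over at least 1 and at most 4 input reads. The third region, chr19:513548-513666, reached 5.63, 6.24 and 4.94 in libraries 1, 2 and 4. In library 3 it was listed at a log2 fold of 3.89 with −log10 p of 2.70, from 7 reads over 1.

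The single region chr19:434161-434566, on the minus strand, came next in height. Its log2 folds were 6.53, 6.17, 6.21 and 5.92 in libraries 1 to 4, with a mean of 6.25 ± 0.24 (SD, n = 3). All 4 libraries gave 3 enriched peaks within its 406 bases, and input held at most 4 reads under the highest peak in each. The smallest SD of the 18 was that of chr19:2758722-2759145 on the minus strand, at 5.77, 6.08, 5.28 and 6.90, with a mean of 5.98 ± 0.18 (SD, n = 3). Its libraries 3 and 4 differed by more than this spread, and their mean enters as 1 sample. Over the 18 regions the median SD was 0.89, against 0.69 over the other 922 regions enriched in all 4 libraries. An SD above 1 was found in 7 of the 18 (38.9%), against 21.3% of the others.

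The stretch with the most regions, chr19:877768-879860 on the minus strand, held 5 regions in 2093 bases, 3 of them enriched in all 4 libraries. Its means per region ran from 4.31 to 4.99. Region chr19:877768-877886 had 6.42, 3.15, 4.54 and 5.50 in libraries 1 to 4, a mean of 4.86 ± 1.64 (SD, n = 3), from 27 reads over 1, 17 over 2, 22 over 2 and 31 over 1. Region chr19:878422-878526 had 6.17, 3.30, 3.89 and 6.88, a mean of 4.95 ± 1.48 (SD, n = 3). In both, library 2 was the lowest and stood just above the threshold. Region chr19:879278-879387 was more even, at 4.69, 4.16, 5.54 and 5.16. The other 2 regions, chr19:878895-879046 and chr19:879769-879860, were enriched in libraries 1, 3 and 4, and library 2 listed them at 2.59 and 2.83, under the fold threshold but with −log10 p of 7.53 and 5.41. Further regions on the same strand were chr19:891513-891667, at 5.13, 4.70 and 4.45 in libraries 1, 2 and 4, and chr19:912335-912725, at 5.21, 3.44, 3.41 and 4.0 in libraries 1 to 4.

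The best covered stretch with a high fold was chr19:1419740-1420426 on the plus strand, whose 3 regions were enriched in all 4 libraries. Region chr19:1419998-1420169 had 5.88, 4.48, 4.98 and 5.24 in libraries 1 to 4, a mean of 5.16 ± 0.70 (SD, n = 3). It rested on 279 immunoprecipitation over 13 input reads in library 2, 104 over 7 in library 3 and 234 over 9 in library 4, and its −log10 p in library 1 stood at the upper limit of 400. Region chr19:1419740-1419997 had 4.97, 4.70, 4.65 and 4.21, a mean of 4.70 ± 0.27 (SD, n = 3), from 128 over 13, 200 over 8, 59 over 5 and 89 over 7 reads. Region chr19:1420331-1420426 had 4.63, 5.73, 4.26 and 4.29, a mean of 4.88 ± 0.76 (SD, n = 3). No fold in this stretch with known reads rested on a single input read.

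The largest known read numbers of libraries 1, 2 and 3 lay at chr19:582925-583385 on the plus strand. In library 4 it was 228 there, against 234 at chr19:1420045-1420169. The mean folds of the stretch chr19:582925-583385 were lower than those at chr19:1419740-1420426. Region chr19:582925-583066 had 3.35, 3.11, 3.88 and 6.86 in libraries 1 to 4, a mean of 3.95 ± 1.24 (SD, n = 3), and it was the lowest mean of the 18. Library 4 stood apart from the other 3 there. Region chr19:583173-583385 had 3.67, 3.72 and 4.05 in libraries 1, 2 and 4, and library 3 listed it at 2.86 with −log10 p of 26.2, from 96 over 28 reads. Of the 16 member peaks at the limit of 400 for −log10 p, 13 fell in this stretch. The largest known read number of the 5 Mb, 575 immunoprecipitation over 91 input reads in library 2, belonged to the peak chr19:583210-583236 here, which at a log2 fold of 2.72 was not called. In libraries 1 and 2 this stretch thus combined very small p with folds near the threshold, while library 4 reached 6.86.

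**Figure D4:**
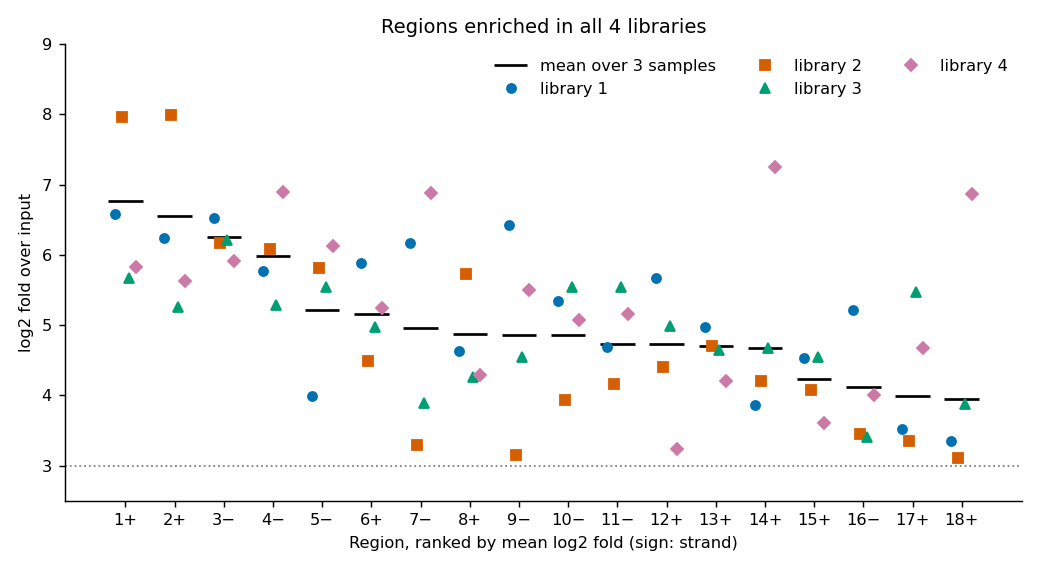
log2 fold over input (vertical axis) of the 18 regions enriched in all 4 libraries, ranked by their mean over 3 samples (bar), with 1 point per library; the dotted line is the threshold of 3. The means run from 6.76 down to 3.95, and the libraries of many regions lie further apart than the means of neighbouring ranks.

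The means of ranks 5 to 14 ran from 5.21 to 4.68, closer together than most of their own SDs, which reached 1.64. The highest peaks of the 4 libraries shared at least 1 base in 10 of the 18 regions. Their centres lay between 3.5 and 317.5 bases apart, with a median of 105.5, and within 50 bases in 6 regions. The closest were chr19:878422-878526, chr19:1420331-1420426 and chr19:582925-583066, at 3.5, 6 and 8 bases. The farthest was chr19:513776-514358, where library 2 had its highest peak at 514108 to 514254 and the other libraries between 513797 and 513974. In such wide regions a fold per region compares different bases between libraries.

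On the plus strand, chr19:1921538-1922919 held 3 regions in 1382 bases. Region chr19:1922680-1922919 had 3.87, 4.2, 4.67 and 7.24 in libraries 1 to 4, a mean of 4.68 ± 1.12 (SD, n = 3), with library 4 apart from the others. Region chr19:1921868-1922035 had 3.53, 3.35, 5.48 and 4.67, and libraries 1 and 2 were both below libraries 3 and 4. Region chr19:1921538-1921625 was enriched at 4.54, 4.14 and 4.63 in libraries 1, 3 and 4 and listed at 2.81 in library 2. Nearby lay chr19:1925428-1925731, at 4.4, 3.97 and 3.41 in libraries 1, 2 and 3, and chr19:1959564-1959839, at 5.67, 4.4, 4.99 and 3.24 in libraries 1 to 4.

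On the minus strand, chr19:2014033-2014997 held 3 regions in 965 bases. Region chr19:2014682-2014997 was enriched in all 4 libraries, at 5.34, 3.94, 5.54 and 5.07, a mean of 4.86 ± 0.80 (SD, n = 3). Region chr19:2014033-2014126 had 5.86, 3.02 and 4.35 in libraries 1, 2 and 4 and was not listed in library 3. Region chr19:2014384-2014448 had 3.90, 4.26 and 5.19 in libraries 1, 3 and 4. Library 2 was thus the lowest in the former 2, and in the third it listed a log2 fold of 2.77 that was not called.

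The last stretches lay past the longest gap. At chr19:3807492-3808220 on the minus strand, with 3 regions in 729 bases, region chr19:3807757-3808220 had 3.99, 5.82, 5.54 and 6.13 in libraries 1 to 4, a mean of 5.21 ± 1.06 (SD, n = 3). Region chr19:3807492-3807577 had 5.49, 5.09 and 4.35 in libraries 2, 3 and 4 and was not listed in library 1. Region chr19:3807596-3807725 had 4.18, 5.89 and 5.07 there, and library 1 listed it at 2.67 from 8 over 4 reads. At chr19:4553242-4554005 on the minus strand, region chr19:4553242-4553336 had 3.8, 4.33 and 3.66 in libraries 2, 3 and 4, and region chr19:4553849-4554005 had 4.13, 6.29 and 5.22 in libraries 1, 3 and 4. Library 1 listed the former at 2.08 and library 2 the latter at 2.98, both under the fold threshold.

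**Figure D5:**
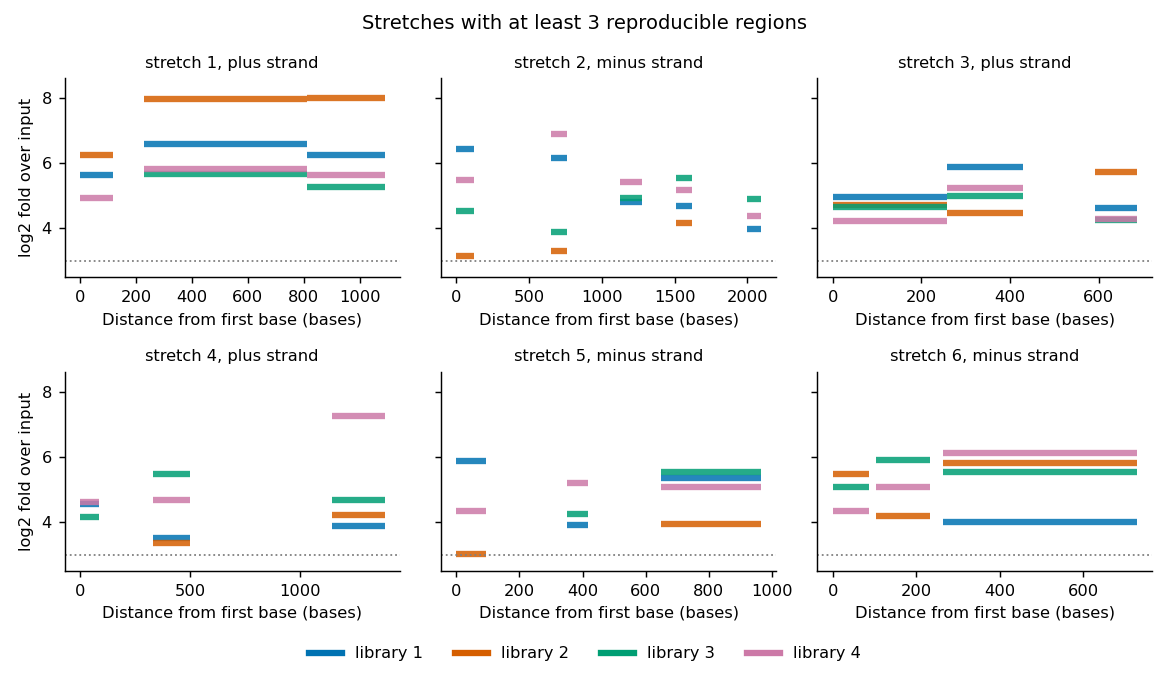
log2 fold over input (vertical axis) against the distance from the first base of the stretch (horizontal axis, bases) in the 6 stretches with at least 3 reproducible regions, in order along the chromosome; each bar is 1 region in 1 library, and the dotted line is the threshold of 3. In stretch 1 library 2 lies highest in all 3 regions, up to 7.99, and in stretch 2 it lies lowest in each of the 3 regions it called.

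The remaining reproducible regions stood alone. They were chr19:1035074-1035302 on the plus strand, with 3.61, 4.79 and 3.0 in libraries 1, 3 and 4, and chr19:1612619-1612772 on the minus strand, with 3.2, 4.47 and 4.24 in libraries 1, 2 and 4. On the plus strand, chr19:2335351-2335641 had 5.02, 3.79 and 3.86 in libraries 1, 3 and 4, and chr19:2802124-2802607 had 4.53, 4.08, 4.54 and 3.60 in libraries 1 to 4. The last reproducible region on that strand was chr19:2805940-2806097, at 3.70, 4.41 and 5.07 in libraries 2, 3 and 4, and the next, chr19:14554509-14555062, lay far beyond the limit, at 5.75, 5.73, 3.54 and 4.0 in libraries 1 to 4. On the minus strand the next beyond 5 Mb was chr19:5936158-5936470, at 6.99, 4.70, 4.79 and 5.45. None of the listed peaks just inside the limit was enriched: libraries 1 to 4 gave log2 folds of 2.40, 3.06, 2.67 and 3.35 with −log10 p of 1.64, 1.72, 1.0 and 2.02. The peaks just outside it had 3.84, 3.52, 3.67 and 2.86, and only that of library 1 passed both thresholds.

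In the 17 regions enriched in exactly 3 libraries, the missing library was library 1 in 4, library 2 in 7, library 3 in 5 and library 4 in 1. Regions that lacked library 1 or library 2 thus rested on 2 of the 3 samples. The missing library had a listed peak at the place in 14 of the 17. For library 2 these listed values were 1.80 to 2.98, from 10 over 3 up to 94 over 14 reads, and 6 of the 7 passed the p threshold and missed the fold threshold.

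Library 1 had most of the regions that a single library called. Of the 88, 59 were enriched in library 1 alone (67.0%), 17 in library 2, 5 in library 3 and 7 in library 4. Elsewhere library 1 accounted for 27.6% and library 2 for 56.8% of such regions. On the rest of chromosome 19 library 1 accounted for 46.8%, and at the ends of chromosomes 16, 17 and 9 for 26.5%, 26.3% and 50%. The same library also placed a larger part of its whole list in the 5 Mb, 2.31%, against 1.10%, 1.21% and 1.24% for libraries 2, 3 and 4. At the chromosome 16 end these shares were 2.14%, 1.07%, 1.22% and 1.11%.

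Of the 59 regions, 42 had a listed peak in another library, 36 of them in library 2. The median log2 fold was 2.06 over these 36 in library 2 and 4.13 over all 59 in library 1. The regions were selected as enriched in library 1 alone, so a lower value in library 2 follows largely from that choice. The highest peaks of the 59 regions in library 1 had a median of 11 immunoprecipitation reads, from 7 to 55, over the 58 with known reads. Of the 59, 21 had a known number of at least 13 reads, the fewest that could be called in library 2. Read minimum and library moved together here, and the part of the read minimum was not tested. The highest of these regions was chr19:1161336-1161490 on the minus strand, at 5.95 in library 1, listed at 2.97 and 3.71 in libraries 2 and 4. With a common minimum of 13 reads in every library, libraries 1 to 4 kept 91, 91, 39 and 69 enriched members, which were 3.59%, 1.43%, 2.35% and 2.23% of all their enriched peaks with that minimum.

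Regions enriched in exactly 2 libraries were called by libraries 1 and 2 in 11 of 25 cases, by 1 and 4 in 7, by 3 and 4 in 4, by 2 and 4 in 2, by 2 and 3 in 1 and by 1 and 3 in 0. Elsewhere, over 1211 such regions, libraries 1 and 2 made up 33.4%, 1 and 4 11.6%, 3 and 4 11.8%, and 2 and 4 31.1%, where the 25 regions gave 44%, 28%, 16% and 8%. Among the 25, 4 lay within chr19:4360472-4361279 on the minus strand, all called by libraries 1 and 2. Their log2 folds were 3.67 and 3.71, 4.67 and 3.21, 3.08 and 3.89, and 3.61 and 4.43 in libraries 1 and 2.

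Levels in the reproducible regions were loosely related between libraries. Over the regions both libraries called, Pearson's r of the log2 folds was 0.39 for libraries 1 and 2 (24 regions), 0.18 for 1 and 3 (26), 0.20 for 1 and 4 (30), 0.51 for 2 and 3 (23), 0.19 for 2 and 4 (27) and 0.18 for 3 and 4 (29). Over the reproducible regions elsewhere the same pairs gave 0.31, 0.35, 0.33, 0.57, 0.57 and 0.67. These are correlations across regions, which share libraries and include neighbours of a stretch, and the thresholds cut off low values. They are given as a description.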

How the data were processed

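The authors deposited 1 peak list per eCLIP library, 4 in all; the submitters' processing notes name hg19. Each gives the −log10 p and the log2 fold of immunoprecipitation over input, as the deposited values show; for aligner, peak caller and the choice of input, details were not given in the sources used here. Peaks were called per library. Positions are printed 1-based. Enriched peaks had log2 of at least 3 and −log10 p of at least 3; those sharing at least 1 base on a strand were merged into regions, reproducible at 3 of 4 libraries. A region's level in a library is its highest enriched log2 fold.

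Read numbers were worked back by matching each log2 fold to a ratio of whole numbers plus a constant per library, and each p to Fisher's exact test (in its binomial limit) or, where all observed and expected numbers were at least 5, the chi-square test with continuity correction, within a relative tolerance of 0.003 and above −log10 p of 0.1. This gave a single solution for all 529, 780, 222 and 318 members tested in libraries 1 to 4, above input and below the ceiling of 15.7 on Fisher's p. On 363 simulated pairs all came back, with 0 wrong, which checks the working back and not how the authors made their p. The depth of input over immunoprecipitation was 3.18, 1.04, 2.12 and 1.46; total reads are unknown. Whether an input of 1 stands for 0 is unknown. At the ceiling input held 1 to 4 reads, and only bounds are given. Libraries were compared over peaks paired with at least 80% overlap and at least 40 reads together.

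The members and all lists were chosen with earlier results of these data known. Regions named in full are the 10 highest means among those enriched in all 4 libraries, the stretches with at least 3 regions and the regions next to the 5 Mb limit; the others were named to account for every reproducible region. The gene lists planned for this band were not counted, since no annotation of hg19 was used. Tools were Python 3.11.15, pandas 2.3.3, numpy 2.4.6, scipy 1.17.1 and matplotlib 3.10.9.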

Additional observations from a re-analysis of the deposited data

Results flagged for a closer look

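Of 28 quantities compared over the 4 libraries, 2 had a library far from the other 3 by Dixon's criterion for 4 values, where chance gives about 1.4. Library 1 placed 2.31% of its list in the 5 Mb, and the next highest, library 4, 1.24%. Library 1 also had the highest plus-strand share of enriched members, 48.6%, where the next was 44.6%. Both comparisons take libraries 3 and 4 singly although they were counted as 1 sample.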

How the results depend on the processing

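The 35 reproducible regions became 60 when 2 libraries sufficed, 18 when all 4 were needed, and 56 when libraries 3 and 4 were joined and 2 of 3 samples sufficed. Leaving out 1 library and needing 2 of the remaining 3 gave 48 to 56, with 56 without library 3. These settings change the number of libraries asked for, so the counts differ by construction. The stricter p (29), the looser fold (42), windows of 4 Mb (33) and 6 Mb (37), a 50% overlap (46) and, chosen after seeing the data, joining peaks that touch (33) stayed within 1.5 times. The 19 stretches were 22 to 26 with each library left out and 17 with a gap of 5 kb.

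Mean enriched peaks lay between 77.2 and 124 under all settings run. The enriched share of 17.1% rose to 74.1% over peaks with at least 20 reads, a setting chosen after seeing the data that leaves out shallow peaks, which can rarely be called; without each library it was 14% to 22.1%. The strand difference kept its sign in 6 of 6 settings (the stricter p, -4.64, was added after seeing the data), from -9.14 to -4.64 points. The width difference of -0.25 bases changed sign with the stricter p, at 0.17 bases, and ran from -1.83 to 1.62 with each library left out, positive without library 1 and without library 4 (1.33); the cause was not tested. The mean of the 10 highest regions, 5.55, ran from 5.12 to 5.65, and of their 60 values under other settings 56 moved by less than their SD; 4 moved by more: with the median of a library's peaks, regions 434161 and 2758722 stood at 5.64 and 5.17, and the latter at 6.25 without library 3 and 5.71 without library 4. No paired analysis was possible because an input library has no list of its own that could be set against the eCLIP library of its number. Depth limits the folds over 1 input read.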
